A study of Mus musculus with 16 samples.

Results

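RNA sequencing of mouse preSC cells was examined for differences within each of its 2 groups, between the samples numbered 5-8 and those numbered 1-4. The members are all 16 samples of the series, chosen by the number in their titles: 8 carry an empty lentiviral vector (the empty group) and 8 a lentivirus with Wnt5a (the Wnt5a group), each divided into 4 samples numbered 1-4 and 4 numbered 5-8. preSC are precancerous cells of small cell lung cancer, cultured neuroendocrine lung cells positive for Chga. Per the labels both groups are Rb1 null and Trp53 null, have a heterozygous null allele of Rbl2, and were given doxycycline at 1 µg/mL for 48 hours, so no group lacks the mutations or the drug. The labels do not say whether a group is one clone, nor what the numbers 1-4 and 5-8 stand for. A change of culture, passage, day, RNA extraction, library preparation or sequencing run between the 2 sets cannot be told apart, and the word shift is used below for the difference, samples 5-8 minus samples 1-4. The contrast of Wnt5a against empty is not the subject.

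As background, neuroendocrine cells of the lung store peptides in dense-core vesicles and use neuronal channels and release machinery. Several transcriptional programmes are known to follow the state of a culture. Hypoxia-inducible factor (HIF) drives glucose uptake and glycolysis when oxygen is scarce, SREBP factors drive the making of sterols and fatty acids, ATF4 drives amino acid uptake and serine synthesis under nutrient stress, and the unfolded protein response raises the chaperones of the endoplasmic reticulum.

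The 4 samples of a set agree within sampling noise or nearly so, with an index of dispersion (chi-square over its degrees of freedom, near 1 for counting noise) of 0.987 to 1.05 in the 24 pairs. Between the 2 sets of a group it was 5.23 to 5.44 in 32 pairs. Each set was therefore averaged and counted as 1 library, which gave 4 libraries of 30220749 to 35315408 reads (7526676 to 8859862 per sample). Nothing says that the libraries of a group came from separate cultures, so p-values measure only the spread between these libraries. The neuroendocrine marker Insm1 was abundant, at library values of 4747 to 5220. Of 62 markers of 7 other cell types, 40 were listed in the files and 9 were expressed enough to be tested. The fibroblast marker Dcn was at 597 and 340.2 in the empty libraries and at 241 and 246 in the Wnt5a libraries. Col1a2, Col3a1 and Postn, also fibroblast markers, were at or near 0 in every library. The other fibroblast markers listed were below the filter: Fap at 5.10 to 6.62, Pdgfra at 1.18 to 9.41, Col1a1 at 0.235 to 3.56, and Pdgfrb and Thy1 at 0 to 2.04. The endothelial marker Vwf was at 3205 and 2330.3 in empty and at 2300.5 and 2002 in Wnt5a, and was the only marker of the 9 called (lower, limma adjusted p = 0.0351, and 0.142 with the length and GC trend described below removed), while Cdh5 and Emcn, also endothelial, were at or near 0. Of the glial markers Mbp was at 1478 to 1626, Aqp4 at 460.1 to 554, and Gfap at or near 0. The tested markers Cd68, Ager, Foxj1 and Des were at 9.37 to 24.2. The part of such genes in the shifts of others was not tested.

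The first question was which genes shifted the same way in both groups. Values are the deposited normalised read counts, and differences are on the scale log2(value + 1), which understates the change of low genes. Among the 12357 genes with a mean value of at least 10, 71.3% shifted in the same direction in both groups. Across all these genes the shifts in the 2 groups had a Pearson r of 0.44 and a Spearman's rho of 0.53. With the length and GC trend described below removed, they were 0.40 and 0.48. Across the 9700 genes with a mean of at least 100 they were 0.61 and 0.63. These values are given as a description, since genes are not independent and the genes of one library share its depth and preparation. The comparisons within empty and within Wnt5a have no sample in common.

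A model with group and set as terms (limma, 4 libraries) called 916 genes at an adjusted p under 0.05, which is 7.41% of the genes tested. Of these 411 (3.33%) rose and 505 (4.09%) fell in samples 5-8. Most called shifts were small, with a median absolute size of 0.30 on the log2 scale, and 43 called genes had a mean shift past 1.5-fold. The model has 1 residual degree of freedom per gene and rests on the spread that limma pools across genes as a trend of expression. Without that trend 0 genes passed in limma (2680 had an unadjusted p under 0.05), as without the filter on low values (0 genes, 3512 unadjusted) and without the group term (0 genes, 1146 unadjusted), whereas edgeR called 968 genes, of which 910 were among the 916, and DESeq2 389, of which 371 were.

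Within a group there is 1 library on each side and no test, so size is described. In the empty group 401 genes (3.25%) differed by at least 1.5-fold, 177 of them higher (1.43%) and 224 lower (1.81%) in samples 5-8. In the Wnt5a group 155 genes (1.25%) did so, 44 higher (0.356%) and 111 lower (0.898%). The same direction in both groups at this size was found for 32 genes (0.259% of those tested), which are 7.98% of the empty genes and 20.6% of the Wnt5a genes. Of the 32, 10 were higher and 22 lower, and 21 were called by limma. Another 198 genes passed 1.5-fold in empty while differing by less than 1.2-fold in Wnt5a (1.60%), 58 did the reverse (0.469%), and 6 passed it in opposite directions (0.0486%).

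**Figure D1:**
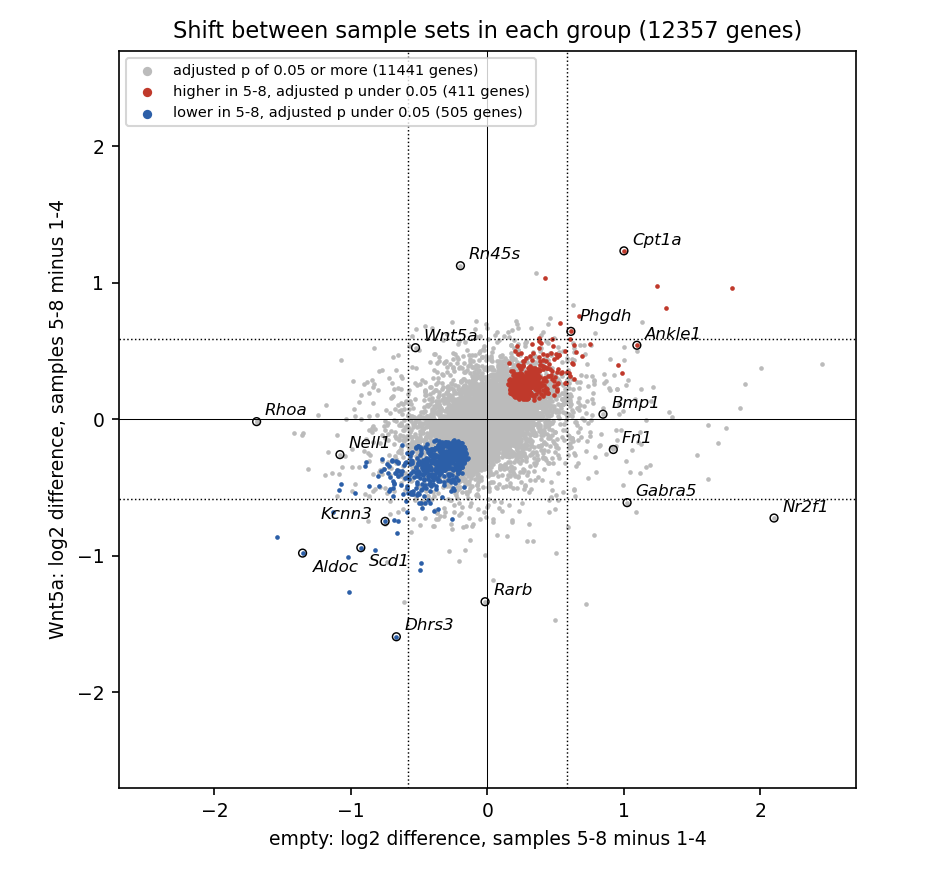
Log2 difference, samples 5-8 minus 1-4, within empty (horizontal axis) and within Wnt5a (vertical axis) for the 12357 genes tested; red and blue points are the 411 and 505 genes called higher and lower by limma, grey points the others, and dotted lines mark 1.5-fold. Called genes lie in the quadrants where both groups shift the same way. The test favours such genes, since it sets the mean of both shifts against a spread that grows with their difference. Rarb, Nr2f1, Wnt5a, Bmp1 and Rhoa lie away from the diagonal of equal shifts.

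Genes that handle fatty acids were among the largest shared shifts. Cpt1a (chromosome 19), which encodes the carnitine palmitoyltransferase that commits fatty acids to mitochondrial oxidation, was at 138, 167, 162 and 137 in empty samples 1-4 and at 320.4, 270.3, 314 and 309 in empty samples 5-8. Among the Wnt5a samples it was at 213, 196, 197 and 199 in samples 1-4 and at 491, 448, 471 and 489 in samples 5-8. All samples 5-8 lay above all samples 1-4 in both groups, with a 2.01-fold and a 2.36-fold difference of the library values. Its mean shift was 1.12 (SE 0.077; limma adjusted p = 0.0125, the smallest of all genes). Here and below, lack of overlap between sets is a description only. The 4 samples of a set count as 1 library, and most genes shown this way were chosen by the size of their shift. Slc25a20 (chromosome 9), the carrier that moves acylcarnitines into mitochondria, rose from 145 to 221 in empty and from 165 to 249.6 in Wnt5a (mean shift 0.60, SE 0.070; limma adjusted p = 0.0153).

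Genes of fatty acid and sterol synthesis fell in the same comparison. Scd1 (chromosome 19), a desaturase that makes monounsaturated fatty acids, was at 183, 188, 214 and 222 in empty samples 1-4 and at 95.9, 96.5, 119 and 111.5 in empty samples 5-8. The Wnt5a samples were at 151, 142, 159 and 129 and then at 68.7, 83.3, 74.7 and 74.3. The sets did not overlap in either group, and the mean shift was -0.93 (SE 0.083; limma adjusted p = 0.0153). Its paralog Scd2 fell from 4989.7 to 3244 in empty and from 5071 to 3462 in Wnt5a (mean shift -0.59, SE 0.044; limma adjusted p = 0.0125). Srebf1, the SREBP factor of fatty acid synthesis, fell by 0.56 and 0.53 on the log2 scale.

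Over all genes tested limma called 3.33% higher and 4.09% lower, and the list counts here and below stand beside these shares. In the list of cholesterol and fatty acid synthesis, all 32 genes were tested, 0 rose and 8 fell, and 25 of the 32 were below 0 in both groups. Its median shift was -0.27 in empty and -0.13 in Wnt5a, against -0.000096 and -0.0023 for all genes tested. Among the 8 that fell were Scd1, Scd2, Srebf1, Acaca and Fasn, which encode the enzymes that make malonyl-CoA and palmitate, Fads1, a desaturase of polyunsaturated fatty acids, and Stard4, a sterol carrier. Of the enzymes of the sterol pathway, Hmgcs1 had shifts of -0.33 and -0.02 (limma adjusted p = 0.175) and Sqle of -0.06 and 0.02 (0.790). In a list of fatty acid oxidation put together after the values were seen, 28 genes were tested, 6 rose and 1 fell. Its median shift was 0.08 in empty and 0.13 in Wnt5a. As it was made with the values of Cpt1a and Slc25a20 known, it gives no independent support. The 6 were Cpt1a, Slc25a20, Acaa2, which cleaves the chain in the last step of each cycle, Eci2, an isomerase for unsaturated chains, and Etfa and Etfb, which pass its electrons to the respiratory chain. The gene that fell was Acadsb, a dehydrogenase of branched short chains.

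**Figure D2:**
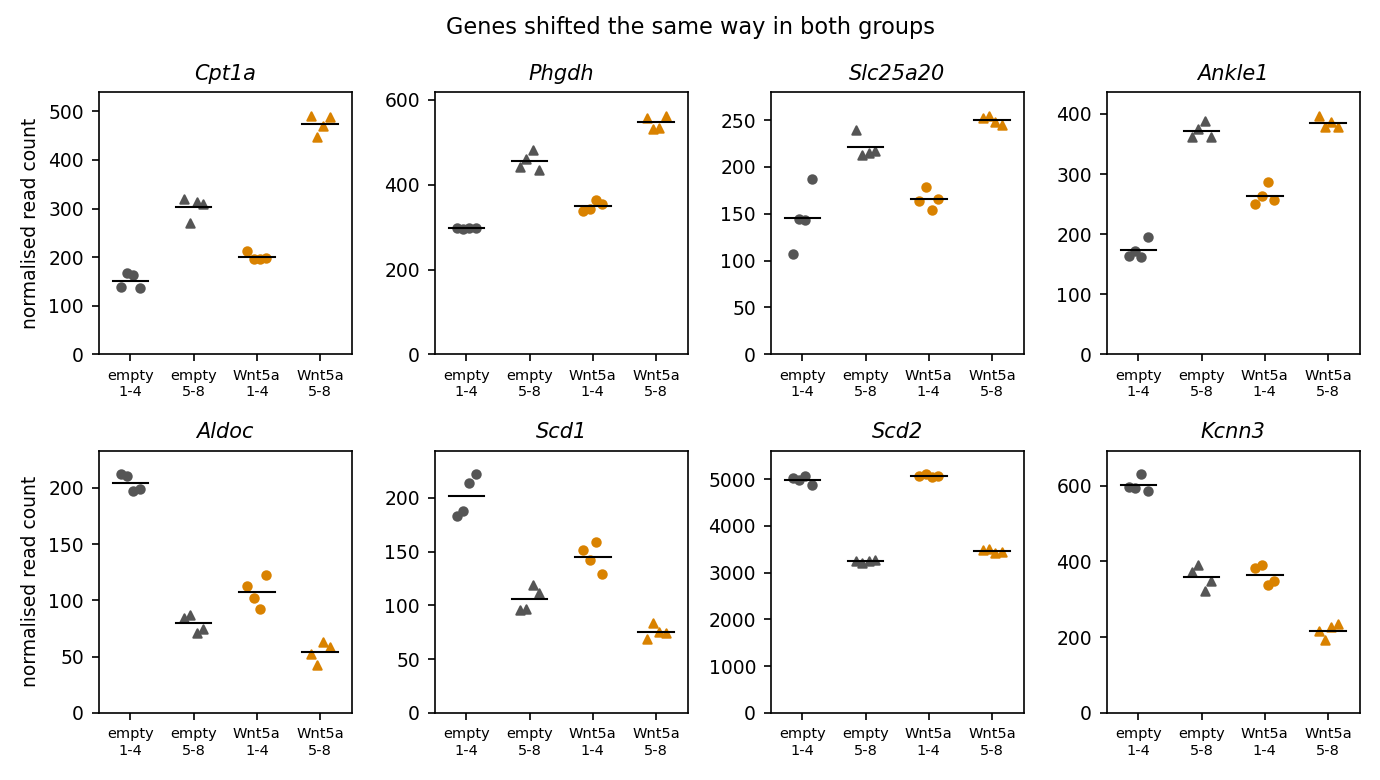
Normalised read count of 8 genes in each of the 16 samples (points; circles are samples 1-4, triangles samples 5-8; grey empty, orange Wnt5a), with horizontal lines at the mean of each set of 4. In both groups samples 5-8 lie above samples 1-4 for Cpt1a, Phgdh, Slc25a20 and Ankle1, and below them for Aldoc, Scd1, Scd2 and Kcnn3.

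Genes of the hypoxia and glycolysis list fell together. The largest was Aldoc (chromosome 11), an aldolase of glycolysis. It was at 212, 210.3, 197 and 199 in empty samples 1-4 and at 84.7, 87.4, 71.0 and 74.7 in empty samples 5-8. Wnt5a samples were at 113, 102, 92.4 and 122 and then at 52.7, 42.1, 62.6 and 58.3. It was thus 2.58-fold lower in empty and 1.99-fold lower in Wnt5a, with no overlap between sets (mean shift -1.17, SE 0.115; limma adjusted p = 0.0153).

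Of 28 tested genes of this list, 9 fell and 0 rose, and 20 were below 0 in both groups. The median shift was -0.30 in empty and -0.14 in Wnt5a, and 6 genes in empty and 2 in Wnt5a were at least 1.5-fold lower. Glucose and lactate transport was represented by Slc2a1, the glucose transporter GLUT1, which fell from 516 to 320.1 in empty and from 439 to 316 in Wnt5a, and by the lactate exporter Slc16a3, which fell from 354 to 218 and from 344 to 243 (limma adjusted p = 0.0153 for both). Bnip3, a HIF target of mitophagy, fell from 678 to 395 and from 474 to 364. Pdk1, a kinase that inhibits pyruvate dehydrogenase, fell from 660.4 to 399 and from 569 to 432, and Ndrg1 from 176 to 107.5 and from 165 to 123. P4ha1, a prolyl hydroxylase of collagen, and the enzymes Ldha and Pfkl made up the 9. Vegfa, the angiogenic ligand, had shifts of -0.19 and -0.24 and did not pass (limma adjusted p = 0.0961), nor did Pgk1, at -0.10 and 0.06 (0.823), or Aldoa, at -0.35 and 0.10 (0.418).

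Promoters of this list were searched for ACGTG, the core to which HIF binds, on both strands in the 250 bases before each start site. The core stood in 16 of the 26 tested members with an entry in the RefSeq promoter table and in 5 of the 8 such members that fell. It stood in 25.4% of the 9700 tested genes with an entry and in 16.6% of all 32851 promoters of that length. Such a match is a description of the letters only, since the core is short and is also part of the E-box CACGTG. The stretches for the transporters of glucose and lactate are shown because these genes are named above as the shared falls of this list, with the core, on either strand, in capitals (GRCm38.p6; Slc2a1 at chr4:119108495-119108744, plus strand; Slc16a3 at chr11:120948817-120949066, plus strand).
Slc2a1: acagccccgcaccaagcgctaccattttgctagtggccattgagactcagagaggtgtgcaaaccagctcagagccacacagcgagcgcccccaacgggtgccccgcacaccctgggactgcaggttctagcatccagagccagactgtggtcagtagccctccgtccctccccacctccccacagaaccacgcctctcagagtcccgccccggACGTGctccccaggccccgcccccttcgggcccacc
Slc16a3: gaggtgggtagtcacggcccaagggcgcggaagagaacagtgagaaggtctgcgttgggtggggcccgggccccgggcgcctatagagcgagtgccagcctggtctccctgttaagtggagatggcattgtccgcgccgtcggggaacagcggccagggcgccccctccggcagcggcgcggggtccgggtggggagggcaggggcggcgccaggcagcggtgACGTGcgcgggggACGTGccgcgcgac

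Stress response genes rose. In the integrated stress response list 8 of 22 tested genes rose and 0 fell, with a median shift of 0.17 in empty and 0.21 in Wnt5a. Phgdh (chromosome 3), the first enzyme of serine synthesis, rose from 298 to 455 in empty and from 349.6 to 547 in Wnt5a, 1.53-fold and 1.56-fold, with every sample 5-8 above every sample 1-4 of its group (mean shift 0.63, SE 0.055; limma adjusted p = 0.0153). Psat1 and Psph, the next enzymes of that pathway, had shifts of 0.41 and 0.30, and of 0.28 and 0.34. The pseudokinase Trib3 rose by 0.48 and 0.54, and the amino acid transporter genes Slc7a5, Slc3a2 and Slc7a3 by 0.25 to 0.52. Atf4 itself rose by 0.18 and 0.19 (limma adjusted p = 0.0477).

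In the unfolded protein response list 8 of 22 tested genes rose and 0 fell, with a median of 0.20 in empty and 0.15 in Wnt5a. These shifts were small and even, from 0.19 to 0.30 in each group. Hspa5, which encodes the chaperone BiP, rose from 6668 to 7888 in empty and from 6824 to 7922 in Wnt5a (mean shift 0.23, SE 0.043; limma adjusted p = 0.0328). Hsp90b1, the endoplasmic reticulum member of the Hsp90 family, rose from 7392 to 9128 and from 7869 to 9191. The other 6 were Calr, Pdia4, Pdia6, Dnajb11, Sdf2l1 and Manf, which are chaperones, disulphide isomerases and cofactors of the same compartment. The list of heat shock and proteotoxic stress, the cytosolic counterpart, had 0 of 15 genes called in limma, edgeR or DESeq2 (3 had an unadjusted limma p under 0.05) and medians of 0.02 in both groups.

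The endoplasmic reticulum stress element, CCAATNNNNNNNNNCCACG, was searched for on both strands in the same windows. It stood in 9 of 20 tested list members with an entry, in 4 of the 7 such members that rose, in 0.144% of the tested genes with an entry and in 0.113% of all promoters. Both stretches below are shown because they carry the element, in capitals, ahead of 2 chaperone genes of the list that rose; in Hsp90b1 the second match reads on the opposite strand (GRCm38.p6; Hspa5 at chr2:34771840-34772089, plus strand; Hsp90b1 at chr10:86705445-86705694, minus strand).
Hspa5: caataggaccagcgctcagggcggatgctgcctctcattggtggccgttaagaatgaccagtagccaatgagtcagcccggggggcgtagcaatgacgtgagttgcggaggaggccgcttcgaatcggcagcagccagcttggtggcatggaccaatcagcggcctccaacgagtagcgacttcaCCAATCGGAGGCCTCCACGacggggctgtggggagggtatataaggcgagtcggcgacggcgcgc
Hsp90b1: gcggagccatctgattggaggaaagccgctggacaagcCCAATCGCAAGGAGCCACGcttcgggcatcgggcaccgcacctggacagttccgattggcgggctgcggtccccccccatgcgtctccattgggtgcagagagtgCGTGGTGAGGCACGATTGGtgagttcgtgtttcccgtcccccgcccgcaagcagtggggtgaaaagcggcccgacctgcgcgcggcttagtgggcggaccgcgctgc

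Some redox genes rose as well. In the NRF2 and redox list 5 of 20 tested genes rose and 0 fell (medians 0.09 in empty and 0.25 in Wnt5a). Txnip, an inhibitor of thioredoxin that follows glucose, rose from 868 to 1682 in empty and from 1071 to 1412 in Wnt5a, and Hmox1, which degrades haem, from 59.5 to 101 and from 73.0 to 107. Prdx1, Txn1 and Txnrd1 of the thioredoxin system rose by 0.19 to 0.38.

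Some genes of cell division rose. In the mitosis list 9 of 26 tested genes rose and 0 fell, with medians of 0.23 in empty and 0.13 in Wnt5a. Birc5 (survivin) rose from 376 to 573 in empty and from 615 to 765 in Wnt5a, Ube2c, the ubiquitin ligase partner of mitotic exit, from 2273 to 2894 and from 2647 to 3392, and Cdk1, the kinase of mitotic entry, from 1545 to 1898 and from 1711 to 2046. Mki67, a common marker of dividing cells, had shifts of -0.04 and -0.30 (limma adjusted p = 0.150). In the DNA replication and S phase list 4 of 26 tested genes rose (Rrm2, Tk1, Tyms and Rfc3) and 0 fell, with medians of 0.13 and 0.05.

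Shifts ran with transcript length in both groups. Across 12296 tested genes with a length, the Spearman coefficient between the shift and the length of the longest annotated transcript was -0.27 in empty and -0.35 in Wnt5a, and -0.01 and 0.05 for GC content. Genes of up to 1000 bases had a median shift of 0.12 in empty and 0.16 in Wnt5a, and those over 8000 bases of -0.14 and -0.13. The median length was 2294 bases for the genes that rose, 6303 for those that fell and 3464 for those not called. With a smooth trend of length and GC removed from each library, a step chosen after seeing the data, limma called 115 genes (0.935%), of which 46 were higher (0.374%) and 69 lower (0.561%), and 113 of these were among the 916. The part of length in the shifts of single genes was not tested.

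**Figure D3:**
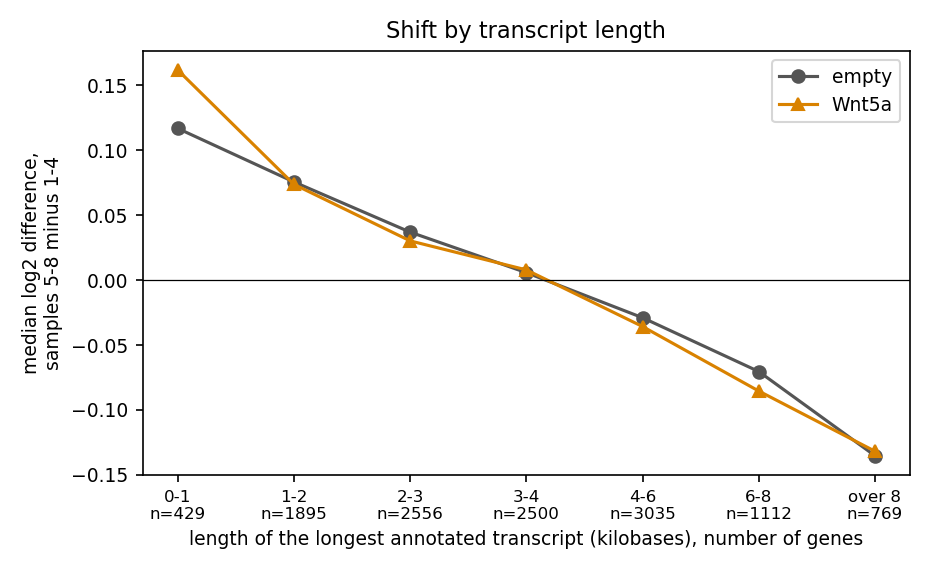
Median log2 difference, samples 5-8 minus 1-4, of tested genes in 7 classes of transcript length (kilobases), with the number of genes under each class; grey circles are empty and orange triangles Wnt5a. Both lines fall from above 0 in the shortest class (0.12 and 0.16) to below 0 in the longest (-0.14 and -0.13).

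Most calls in lists of short genes were lost with the trend removed, as over all genes, where 916 calls became 115. Of 39 tested cytosolic ribosomal protein genes (median length 1248 bases), 13 rose and 0 fell, with medians of 0.15 in empty and 0.18 in Wnt5a; with the trend removed 1 rose, and the medians were 0.08 and 0.09. Rpl12 rose from 949.7 to 1171 and from 1201 to 1551. Of 45 nuclear-encoded genes of oxidative phosphorylation (1410 bases), 17 rose and 0 fell, with medians of 0.16 and 0.20, against 1 rise and medians of 0.09 and 0.12 with the trend removed. Cox7b, a subunit of cytochrome oxidase, rose from 473 to 616 and from 507 to 650.2. Many ribosomal protein genes have near-identical pseudogene copies, which leaves their counts less certain.

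The same held for a list of long genes. Of 30 tested genes for ion channels and synaptic adhesion (7843 bases), 0 rose and 8 fell, with medians of -0.16 in empty and -0.10 in Wnt5a; with the trend removed 1 fell, and the medians were -0.06 and -0.02. Dpp6, an auxiliary subunit of Kv4 potassium channels, fell from 1141 to 701 and from 630.2 to 508. For the lists described before, the medians with the trend removed were -0.30 and -0.11 for hypoxia and glycolysis, -0.23 and -0.11 for lipid synthesis, 0.14 and 0.20 for the integrated stress response, 0.17 and 0.14 for the unfolded protein response and 0.20 and 0.12 for mitosis. Fewer of their genes were called then: 5 fell in hypoxia and glycolysis, 4 in lipid synthesis, and 2, 0 and 3 rose in the other lists, in that order. In DNA replication and S phase 0 genes were called with the trend removed, against 4 without, and the medians were 0.11 in empty and 0.02 in Wnt5a. In NRF2 and redox 1 was called, against 5, with medians of 0.09 and 0.19. In fatty acid oxidation 4 rose and 0 fell, against 6 and 1.

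**Figure D4:**
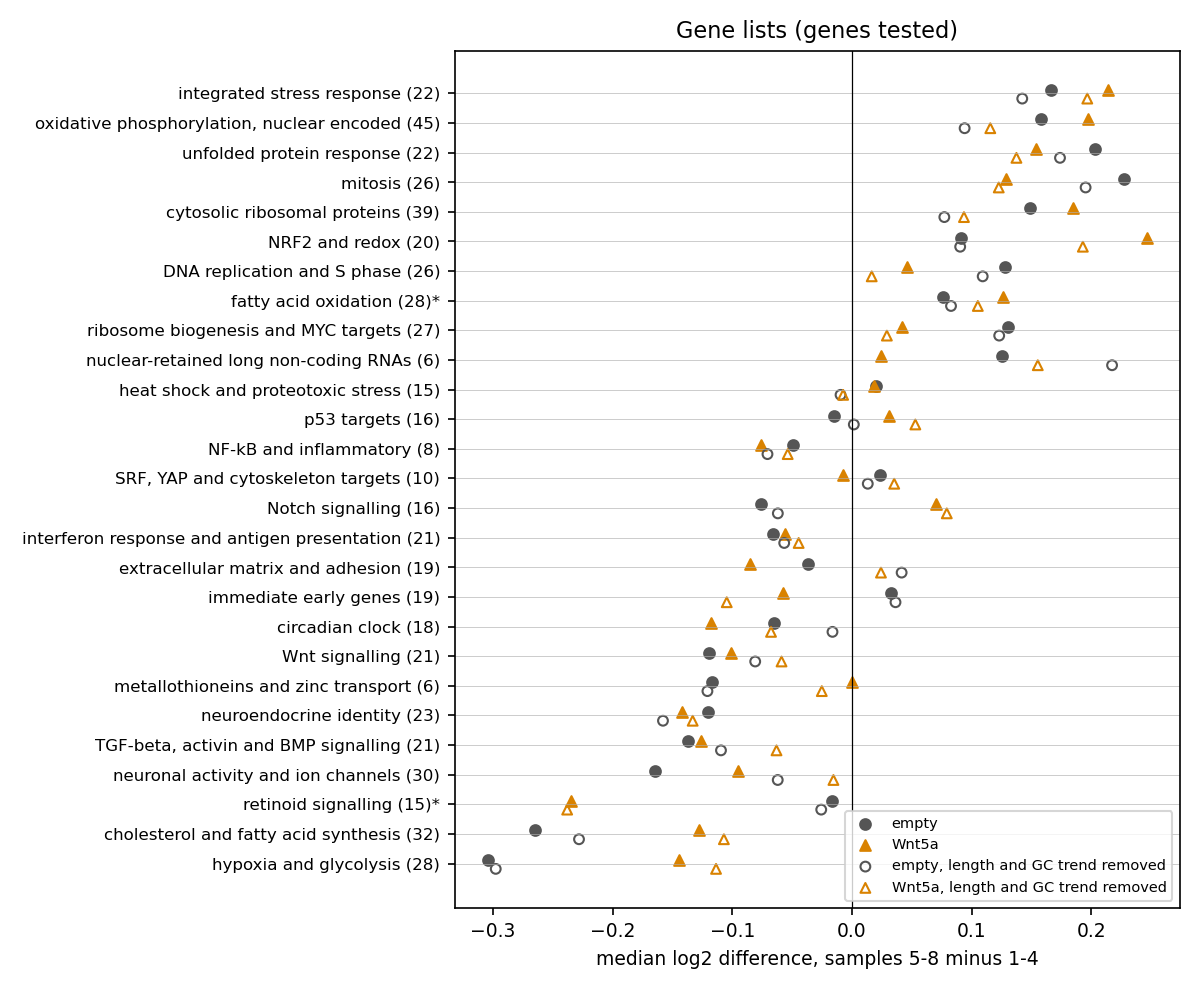
Median log2 difference, samples 5-8 minus 1-4, of gene lists with the number of genes tested in brackets, within empty (grey circles) and within Wnt5a (orange triangles); open symbols have the length and GC trend removed, and an asterisk marks lists put together after values were seen. Hypoxia and glycolysis has the lowest median in empty (-0.30), and mitosis the highest (0.23).

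Neuroendocrine identity genes were mostly lower. Of 23 tested genes of this list, 4 fell and 1 rose, and 19 were below 0 in both groups (medians -0.12 in empty and -0.14 in Wnt5a). With the length trend removed 2 fell and 1 rose, and the medians were -0.16 and -0.13. Chga, the granin by which the labels define the cells, fell from 4369.6 to 3716 in empty and from 3799.8 to 3007 in Wnt5a (mean shift -0.29, SE 0.046; limma adjusted p = 0.0246). Scg5, a chaperone of prohormone convertase, fell from 1468 to 994 and from 1104 to 931, and the vesicle genes Rab3b and Syt1 also fell. Uchl1, a neuronal ubiquitin hydrolase, rose from 4899 to 6163 and from 4231 to 5399. Insm1, a transcription factor of neuroendocrine cells, had shifts of -0.07 and -0.11 (limma adjusted p = 0.218).

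Signalling lists held a few falls each, where 4.09% of all genes tested fell and 3.33% rose. The median shift in empty and Wnt5a was -0.12 and -0.10 for the Wnt list. It was -0.14 and -0.13 for TGF-beta, activin and BMP, and -0.06 and -0.12 for the circadian clock. In the Wnt list 4 of 21 tested genes fell and 0 rose: the feedback inhibitors Notum and Axin2, and the receptors Lgr4 and Lrp6. In the list of TGF-beta, activin and BMP 3 of 21 fell and 0 rose: Id4, which went from 3789 to 2785 and from 3163 to 2428, Id2 and the receptor Bmpr2. In the circadian clock list 4 of 18 fell and 0 rose, among them Rora, Arntl, which encodes the activator BMAL1, and the repressor Bhlhe40. With the length trend removed 1, 2 and 0 of these genes fell. Among 19 immediate early genes 0 passed in limma, in edgeR or, where it gave an adjusted p, in DESeq2 (5 had an unadjusted limma p under 0.05), as among 16 genes of Notch signalling (5) and 8 of NF-kB and inflammation (1). Of the ribosome biogenesis and MYC target list 5 of 27 rose and 1 fell, against 1 and 0 with the length trend removed. In the lists of p53 targets, matrix, interferon, zinc, serum response and nuclear-retained RNA genes at most 1 passed in each direction, and with the length trend removed only 1 rise, in the nuclear-retained RNAs, was left among them.

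Outside these lists, 6 further rises and 7 further falls stood among the largest shared shifts at a mean value of at least 100. The rises were Antxr1, a receptor for collagen and anthrax toxin, Ankle1, an endonuclease, Cox6a2, a subunit of cytochrome oxidase, Sec61g, a subunit of the translocon, the imprinted gene Mest, and 2700099C18Rik. Ankle1 rose from 173 to 372 in empty and from 264 to 385 in Wnt5a. The falls were Kcnn3, Dhrs3, the receptor gene Flt4 (VEGFR3), Srgap3, which activates the GTPase activity of small G proteins, the adrenergic receptor Adra2a, the transcription factor Zbtb20 and Calcoco1. Kcnn3, a calcium-activated potassium channel, fell by the same factor of 1.68 in both groups, from 602 to 358 and from 365 to 217 (mean shift -0.75, SE 0.057; limma adjusted p = 0.0125). Dhrs3, a reductase of retinal, fell from 175 to 109.8 in empty and from 259 to 85.1 in Wnt5a, 1.59-fold and 3.04-fold.

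Of the 32 genes past 1.5-fold the same way, 22 had a mean under 100. On the scale log2(value + 1), 3 were past 2-fold in both groups: Cpt1a, Oplah and Sec14l3. The last 2 are named after their values were seen. By the ratio of library values, Idi2 (3.72-fold in empty, 2.01-fold in Wnt5a) and Cd1d1 (2.52-fold and 2.06-fold) were also past 2-fold, both higher. Idi2 and Cd1d1 rest on 33 to 141 reads per library and are likewise named after their values were seen. Oplah, the 5-oxoprolinase of glutathione turnover, fell from 143 to 69.8 in empty and from 93.9 to 46.2 in Wnt5a, and Sec14l3, a lipid-binding protein gene, from 23.1 to 10.9 and from 19.97 to 7.73, on 33 to 85 reads per library.

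The second question was which genes shifted in one group only. The difference of the 2 shifts has no residual degree of freedom with 4 libraries and was not tested, so these genes are described by size with 95% counting intervals (exact binomial on the recovered reads of each library), which cover counting error only. Of the 198 genes past 1.5-fold in empty only, 51 had a mean of at least 100, and of the 58 in Wnt5a only, 13 did.

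In the empty group Bmp1 (chromosome 14), the procollagen protease, was at 216, 239, 227 and 234 in samples 1-4 and at 415, 449, 395 and 393 in samples 5-8. Its log2 shift was 0.85 (counting interval 0.73 to 0.97). In the Wnt5a group its library values were 376 and 386, a shift of 0.04 (-0.06 to 0.14), so empty samples 1-4 were the set that stood apart. Fn1, which encodes fibronectin, was also lowest in empty samples 1-4, at 60.4 and 115 in empty (shift 0.92, interval 0.70 to 1.17). In Wnt5a it was at 129 and 111, a small fall (-0.22, interval -0.40 to -0.04). Dpp10, an auxiliary subunit of Kv4 channels, was at 497 and 846 in empty (shift 0.77, interval 0.69 to 0.85) and at 266 and 272 in Wnt5a (0.03, interval -0.09 to 0.15). The other genes higher in empty only were the arginase gene Arg2 and 2700081O15Rik.

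Nell1, a secreted growth factor, was the gene with the most reads among those lower in empty only. It was at 1629.7 and 770.4 in the empty libraries (shift -1.08, interval -1.14 to -1.02) and at 1030.3 and 861 in Wnt5a (-0.26, interval -0.32 to -0.20). Cd59a, an inhibitor of complement, was at 191 and 95.8 in empty and 100.5 and 86.3 in Wnt5a, and Ptpn14, a phosphatase, at 411 and 216 in empty and 187 and 188 in Wnt5a. The 2 other genes named by the rule rest on almost no reads in the empty group. Rhoa, a small GTPase, had 17 and 3 reads there (counting interval of the log2 ratio -5.03 to -0.83), with 2186 and 2164 reads in Wnt5a, and Rab1b, a GTPase of vesicle traffic, 11 and 1 (-9.0 to -0.79), with 862 and 858. A count of 3 is the floor used here, so the size of both ratios is poorly determined.

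Among genes lower in Wnt5a only with a mean of at least 100, Rarb (chromosome 14), the retinoic acid receptor beta, differed most. It was at 308, 329, 297 and 336 in Wnt5a samples 1-4 and at 112, 137, 140.1 and 112 in samples 5-8, 2.54-fold lower (shift -1.34, interval -1.49 to -1.20). In the empty group it was at 146, 168, 181 and 181 and then at 171, 160.5, 175 and 161 (shift -0.02, interval -0.18 to 0.14). Wnt5a samples 1-4 thus lay above and samples 5-8 below every empty sample. Nrp1, a co-receptor of semaphorins and VEGF, was at 733 and 435 in Wnt5a (-0.75, -0.84 to -0.67) and at 539 and 555 in empty (0.04, -0.05 to 0.13). Samd5, the arginine transporter Slc7a2 and 1110032F04Rik were also lower in Wnt5a only; Samd5, with shifts of -0.26 and -0.73, was called by the shared test as well (limma adjusted p = 0.0495).

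Among the genes higher in Wnt5a only, Rn45s, the precursor of ribosomal RNA, was first. It held 0.246% and 0.216% of reads in the empty libraries and 0.234% and 0.509% in the Wnt5a libraries, and its shift was -0.20 in empty and 1.13 in Wnt5a. Ribosomal RNA has no poly(A) tail, and the libraries were made by oligo-dT selection. Wnt5a samples 5-8 held more of it than the other 3 sets, and its part in the shifts of other genes was not tested. Ppargc1a, a coactivator of mitochondrial genes, was at 135 and 206 in Wnt5a (shift 0.61, interval 0.46 to 0.77) and at 238 and 229 in empty. B3gat1, which makes the HNK-1 carbohydrate of neural adhesion proteins, was at 247 and 402 against 205 and 239.5, and Cavin2, a coat protein of caveolae, at 88.8 and 134 against 193 and 194. The fifth, 2010107E04Rik, had shifts of 0.22 and 0.54 and was called by the shared test (limma adjusted p = 0.0409).

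**Figure D5:**
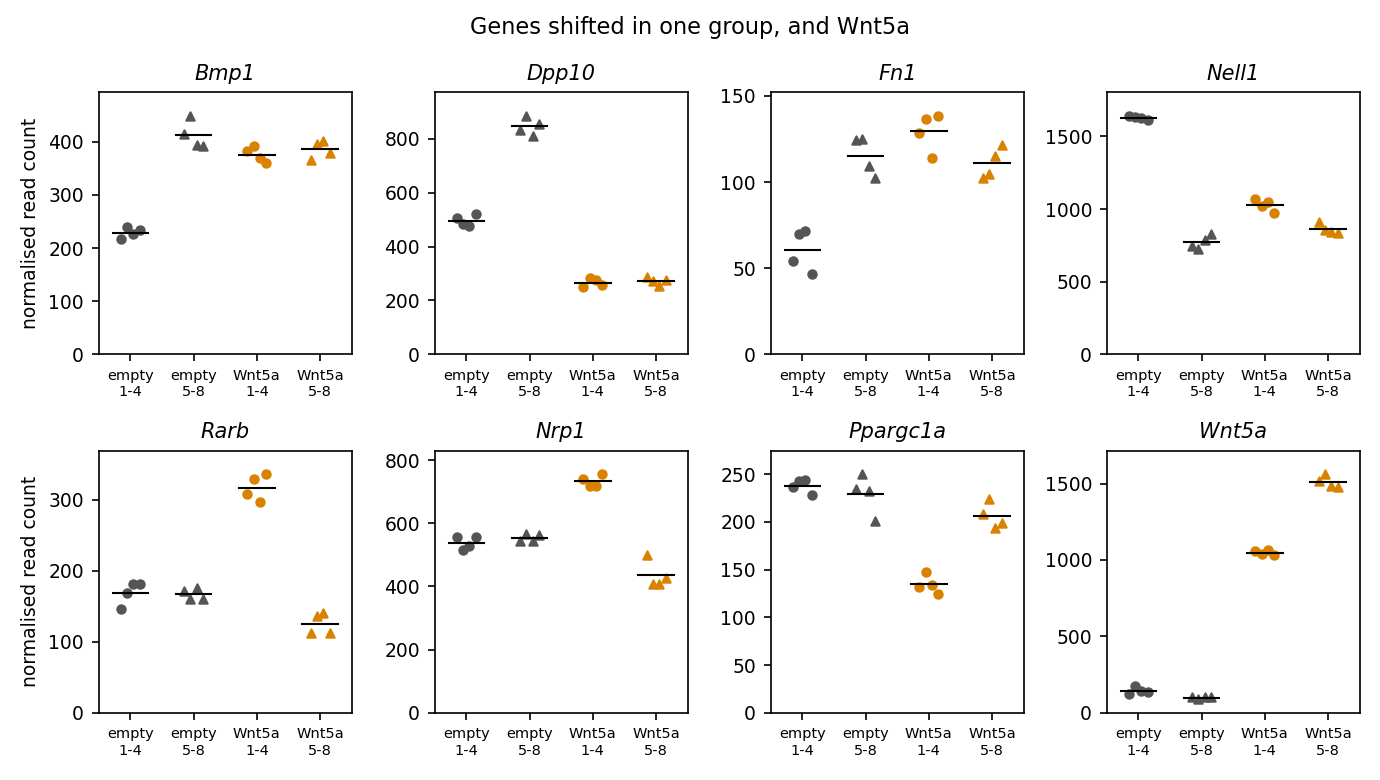
Normalised read count of 8 genes in each of the 16 samples (circles samples 1-4, triangles samples 5-8; grey empty, orange Wnt5a), with lines at the mean of each set. Bmp1, Dpp10, Fn1 and Nell1 differ between sets mainly in empty, Rarb, Nrp1 and Ppargc1a in Wnt5a, and Wnt5a in opposite directions.

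All 6 genes past 1.5-fold in opposite directions were higher in samples 5-8 of empty and lower in samples 5-8 of Wnt5a, and all had a mean value under 100. They are named although the rule for named genes leaves them out. Gabra5, a subunit of the GABA receptor, was at 48.0 and 98.5 in empty and 78.9 and 51.3 in Wnt5a. Sez6l, a neuronal membrane protein gene, was at 17.1 and 28.8 in empty and 18.3 and 6.57 in Wnt5a. Nr2f1, a nuclear receptor, was at 2.20 and 12.7 in empty, on 8 and 50 reads, and at 24.7 and 14.5 in Wnt5a. Egflam, Lgi3 and Mmp16, a membrane-bound metalloproteinase, were at 18.8 to 41.0 in empty and 14.1 to 35.2 in Wnt5a.

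The lentiviral gene itself differed between the sets. Wnt5a (chromosome 14) was at 124, 174, 141 and 138 in empty samples 1-4 and at 102, 90.4, 103 and 103 in empty samples 5-8, a shift of -0.53 (counting interval -0.72 to -0.34). Among the Wnt5a samples it was at 1058, 1039, 1065 and 1032 in samples 1-4 and at 1515, 1560, 1482 and 1478 in samples 5-8, a shift of 0.52 (0.47 to 0.58). The sets did not overlap in either group, and the mean of both shifts was near 0 (limma adjusted p = 0.998). Counts per gene do not separate lentiviral from endogenous Wnt5a. The genes of the genotype shifted little: Rb1 by 0.01 and 0.02 (limma adjusted p = 0.856), Trp53 by 0.11 and 0.20 (0.348) and Rbl2 by -0.03 and -0.15 (0.382), with reads of all 3 in every library.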

How the data were processed

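The deposited files list 17655 gene symbols with one signal value each; the submitters' processing notes name TopHat, Bowtie, HTSeq and DESeq2, without versions, and the genome build, annotation and strand setting are not given in the sources used here. Each deposited signal value proved to be a whole number times a factor fixed for its file (100% of values), and dividing by that factor gave the reads. Samples were grouped by their titles. Each set of 4 was averaged to 1 library, and genes with a mean value of at least 10 were kept. The shared shift was tested with limma 3.58.1 (R 4.3.3; group and set as terms, eBayes with trend) on log2(value + 1), adjusted by Benjamini-Hochberg over 12357 genes at 0.05; with 2 libraries per set, swapped within groups, an exact permutation test could not go below p = 0.5. Checked on simulated data (5 simulations, 200 of 12357 genes changed), it recovered 85.0% of 1.5-fold and 94.4% of 2-fold changes, and 10.3% of calls were false. That share is above the threshold of 0.05. The simulated noise was independent between genes and held no trend of length, unlike these data, so the rates here may differ. Within groups, 1.5-fold counted as a difference, and less than 1.2-fold in the other group as one group only.

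Alternatives were count models (edgeR 4.0.16, DESeq2 1.42.0) fitted to the reads of each library, other pseudocounts, filters and scalings, no trend, no group term, 16 separate samples and omission of single samples; removal of a length and GC trend (longest GENCODE M21 transcript) was added after the data were seen. Chromosomes and promoters came from RefSeq (GRCm38.p6), which matched 17621 symbols, 380 through a synonym. Of the 13 transcripts of the mitochondrial genome 0 were listed in the files. The members, the 27 gene lists, the 7 marker lists and the rules were chosen with earlier results of these data known, and 2 further lists after the values were seen. Named genes were the 10 largest shared rises and falls (by the smaller of the 2 shifts) and the 5 largest rises and falls of one group only, at a mean of at least 100, up to 4 called members per list, and the genes named in the labels. Overlapping and antisense genes and near-identical copies cannot be separated in these counts. Values of some list members are not reported here.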

Additional observations from a re-analysis of the deposited data

Results flagged for a closer look

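In 5 of 104 sets of 4 samples looked at, one sample lay far from the other 3 by Dixon's test; chance alone gives about 1 in 20. Slc25a20 was at 239.8 in empty sample 5, against 212 to 217 in the other samples of its set. Wnt5a was at 90.4 in empty sample 6, against 102 to 103, and Trp53 at 78.8 in empty sample 8, against 66.0 to 68.1. Cpt1a was at 213 in Wnt5a sample 1, against 196 to 199, and Rb1 at 3206 in Wnt5a sample 8, against 3220.0 to 3222.

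Among the genes named and the 6 past 1.5-fold in opposite directions, there were 6 for which every sample 5-8 of one group lay above, and every sample 5-8 of the other group below, the samples 1-4 of its own group; the difference between the groups was not tested. The log2 shifts in empty and Wnt5a were -0.20 and 1.13 for Rn45s, -0.53 and 0.52 for Wnt5a, 0.59 and -0.79 for Egflam, 1.02 and -0.61 for Gabra5, 0.78 and -0.85 for Lgi3, and 2.10 and -0.72 for Nr2f1, which rests on 8 and 50 reads in empty.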

How the results depend on the processing

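No paired analysis was possible because samples 1-4 and 5-8 of a group share no replicate number; the group was a term of the model. The 916 shared calls numbered 0 with eBayes without trend, 0 with no filter, 0 with no group term, 5939 with all 16 samples counted separately, 389 with DESeq2, where 4552 genes had no adjusted p, and 115 with the length and GC trend removed; the other alternatives gave 865 to 1112. Omitting one sample gave 657 (without Wnt5a sample 5) to 1865 calls (without empty sample 2), over 1.5 times the 916 in 9 of 16 cases; the cause was not tested. The counts by size, in the order empty, Wnt5a, same way, empty only and Wnt5a only, were 401, 155, 32, 198 and 58. A minimum mean of 50 gave 161, 58, 13, 77 and 20, no filter 1631, 927, 186, 776 and 313, a pseudocount of 10 193, 65, 13, 99 and 27, and a 2-fold threshold 65, 16, 3, 29 and 4. Allowing under 1.1-fold in the other group gave 111 in empty only and 32 in Wnt5a only. Omitting one sample gave 398 to 426, 155 to 185, 29 to 43, 188 to 212 and 53 to 72. These counts therefore depend on low genes: 30 of the 401 and 3 of the 155 had a counting interval that held no change. Single named genes kept direction and call in 1959 tested comparisons with an alternative and lost the call in 321; within groups 1091 values stayed and 11 moved; list medians stayed in 283 and moved in 25, and 0 results reversed.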

Other observations

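Genes of retinoid handling were looked at after Dhrs3 and Rarb had been seen, so their list gives no independent support. Of 15 tested genes 3 fell and 0 rose in the shared test (limma), and the median shift was -0.02 in empty and -0.23 in Wnt5a. Dhrs3, which returns retinal to retinol, was 1.59-fold lower in empty and 3.04-fold lower in Wnt5a samples 5-8. Stra6, the receptor that takes up retinol, fell from 96.0 to 68.0 in empty and from 113 to 52.0 in Wnt5a (limma adjusted p = 0.0333), and the retinoid X receptor gene Rxra from 473 to 292 and from 375 to 304.0 (0.0324). Rarb was at 318 and 125 in the Wnt5a libraries and at 169 and 167 in empty. Aldh1a2, which makes retinoic acid, had shifts of 0.44 in empty and -0.23 in Wnt5a, and Crabp1, a retinoic acid binding protein, of 0.41 and -0.28, and neither was called (limma adjusted p = 0.658 and 0.817). With the length and GC trend removed 0 of the 15 genes were called.

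Chromosome medians of the shift lay between -0.035 and 0.019 in both groups on the 20 chromosomes with medians computed.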
